A study of Danio rerio with 6 samples.

Results

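The genes described here encode the enzymes that remove superoxide and peroxides and the Nrf2 branch that controls many of them, in zebrafish liver. They were taken by name (sod1, sod2, cat, prdx1, prdx2, prdx4, prdx6, nqo1, hmox1a and nfe2l2a), and all 10 were found among the 32520 genes of the count table. The question, as the series title frames it, is whether freezing sperm leaves long-term effects in the offspring. Poly-A RNA-seq libraries were made from liver of wild-type AB zebrafish, 3 from fish sired with fresh sperm (the control, fresh replicates 1 to 3) and 3 from fish sired with cryopreserved sperm (cryo replicates 1 to 3). AB is a standard laboratory strain. No other allele or agent is given for either group, and the labels leave out age, sex and how many fish went into each library. The p-values below therefore speak of the spread between libraries only. The titles begin with F for fresh sperm and C for cryopreserved sperm, and if these letters had been crossed with the treatment labels every direction given here would reverse.

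Superoxide dismutases turn superoxide into hydrogen peroxide. Catalase, in peroxisomes, and the peroxiredoxins then reduce the peroxide, and thioredoxin recharges many of the peroxiredoxins. The transcription factor Nrf2 is held down by its adaptor Keap1 and, once released by oxidants or electrophiles, switches on genes such as NQO1 and heme oxygenase 1. Liver is rich in peroxisomes and in fatty acid oxidation, which both yield hydrogen peroxide, and its catalase level is known to be high.

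The gene name table lists sod1, sod2, cat, prdx4, nqo1, hmox1a and nfe2l2a in capitals, the last pair as HMOX1 and NFE2L2. A RefSeq table of the GRCz12tu assembly gives those names as synonyms of hmox1a and nfe2l2a. Peroxiredoxin 1 is listed on separate rows, as prdx1 (ENSDARG00000058734) and as PRDX1 (ENSDARG00000025350). The RefSeq table gives prdx1 as a synonym of prdx2, so the row in capitals was taken for prdx2 and is called PRDX1 here. Reads of near-identical copies may be split or shared, which makes values of single peroxiredoxin rows uncertain.

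Library totals ran from 16885619 to 17606733 counts in the fresh group and from 8277183 to 16146121 in the cryo group. Cryo replicates 2 and 3 stood apart: the 7 vitellogenin genes, whose egg yolk precursor liver makes under oestrogen, took 17.4% and 12.4% of their counts, against at most 6.04e-04% in any other library. Values without these libraries, or without cryo replicate 1, are given for each of the 10 genes below. The 11 hepatocyte markers were all tested. They summed to between 160496 and 189827 TMM-normalised CPM in the fresh group and between 165774 and 266467 in the cryo group. Liver transcripts were thus abundant in every library. These CPM are counts scaled to each library's total over the tested genes, not over all its counts. Of the 7 vitellogenin genes 1 was tested, so the others lie outside that total. The 14 exocrine pancreas markers summed to 280 to 523 CPM in the fresh group and 1213 to 3614 CPM in the cryo group. Of these 14, 10 passed the edgeR threshold given below, all higher in cryo, against 1.02% of all tested genes. The 11 macrophage markers summed to 12.4 to 22.7 CPM in fresh and 27.9 to 44.1 CPM in cryo libraries. Whether such RNA contributes to the values below was not tested, and in bulk tissue fewer cells of a type and less RNA per cell cannot be told apart.

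None of the 10 genes changed past the threshold between groups, an adjusted p under 0.05 in edgeR's quasi-likelihood test over 12674 genes. By the same test 1.98% of all tested genes passed, 1.02% higher and 0.963% lower in the cryo group. At an unadjusted p under 0.05 there were 4 of the 10 genes (prdx1, cat, prdx4 and nqo1), against 18.5% of all tested genes. DESeq2 called 2 of them, cat and prdx1, against 7.66% of the genes it gave an adjusted p. The values were lower in the cryo group for 6 genes and higher for 4, with a median log2 change of -0.38 against 0.00 over all tested genes. That median was -0.64 without cryo replicate 1, -0.09 without cryo replicate 2, -0.25 without cryo replicate 3 and -0.20 without fresh replicate 3. The median size of change, whatever its direction, was 0.47, near the 0.44 of all tested genes. The values of the groups did not overlap for 4 of the 10 genes, lower in cryo for cat, nqo1 and sod1 and higher for prdx1, where 24.6% of all tested genes had no overlap.

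**Figure D1:**
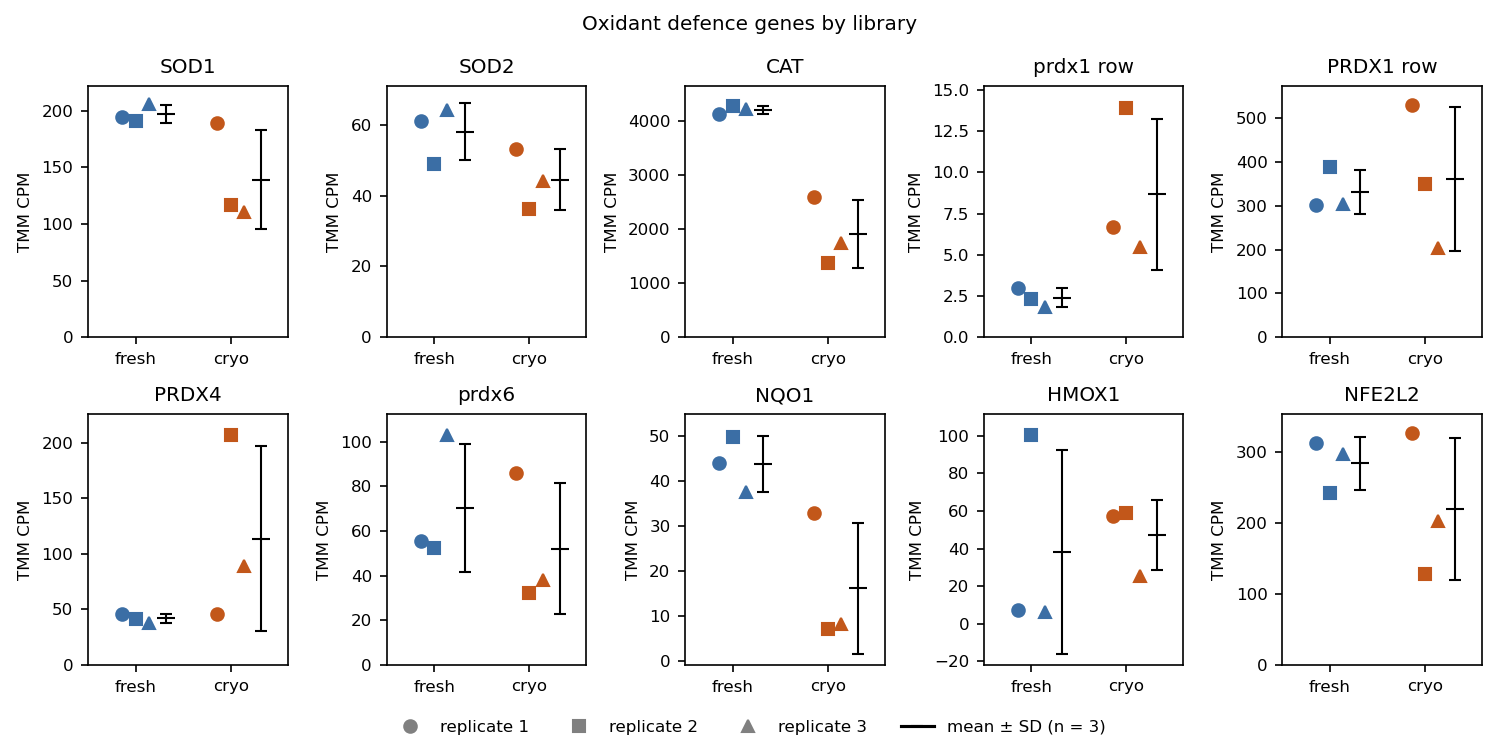
TMM-normalised CPM (vertical axes, linear and differing between panels) of each of the 10 genes in the 3 fresh and 3 cryo libraries, with the mean and SD of each group beside them. CAT, NQO1 and SOD1 had every cryo value below every fresh value, the prdx1 row had every cryo value above, and HMOX1 had 1 fresh library at 100.6 CPM.

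Catalase had the tightest control values of the set and every cryo library lay below them. The gene cat stood at 4136, 4280 and 4223 CPM in the 3 fresh libraries, in replicate order here and below. Cryo replicates 1, 2 and 3 held 2606, 1372 and 1743 CPM. The highest cryo library thus lay well under the lowest fresh one. The group means were 4213 ± 72.7 and 1907 ± 633 CPM (SD, n = 3), a log2 change of -1.14 ± 0.36 (SE) with a 95% interval from -1.99 to -0.30. This missed the threshold in edgeR (adjusted p = 0.150) and passed in DESeq2 (adjusted p = 0.0143). Without cryo replicate 1 the change was -1.42 and passed (edgeR adjusted p = 0.0179), and with cryo replicate 1 as the only cryo library it was -0.65 (edgeR adjusted p = 0.177). Before any scaling, cat took 0.413% to 0.446% of all counts in fresh libraries and 0.249%, 0.117% and 0.151% in cryo replicates 1, 2 and 3. In cryo replicates 2 and 3 vitellogenin made up 17.4% and 12.4% of those counts, which lowers the share of every other gene there. The SD of its log2 CPM among fresh libraries was 0.025, smaller than that of all but 0.631% of tested genes.

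The cytosolic copper-zinc dismutase gene sod1 was nearly level in the fresh group, at 195, 191 and 206 CPM. Its cryo values were 189, 117 and 110 CPM in cryo replicates 1, 2 and 3. Cryo replicate 1 lay just under the lowest fresh library, and the gap between groups came from the other cryo libraries. Its log2 change was -0.50 ± 0.29, with an interval from -1.18 to 0.17 (edgeR adjusted p = 0.401). It was -0.78 without cryo replicate 1 (edgeR adjusted p = 0.0955) and -0.02 with cryo replicate 1 as the only cryo library.

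The mitochondrial manganese dismutase gene sod2 ranged from 49.0 to 64.1 CPM over fresh libraries (61.1, 49.0 and 64.1) and from 36.2 to 53.2 CPM over cryo libraries (53.2, 36.2 and 44.2). These ranges overlapped, since cryo replicate 1 lay above fresh replicate 2. Its log2 change was -0.38 ± 0.25 (edgeR adjusted p = 0.459), with an interval from -0.96 to 0.19. It was -0.52 without cryo replicate 1 and -0.08 with cryo replicate 1 as the only cryo library.

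Ratios of raw counts between genes of one library need no scaling across libraries. There were 21.2, 22.4 and 20.5 counts of cat for each count of sod1 in the fresh libraries and 13.8, 11.7 and 15.8 in the cryo libraries. These ranges did not overlap. The ratio of sod1 to sod2 overlapped, at 3.18 to 3.89 in fresh and 2.498 to 3.56 in cryo libraries. The ratios were chosen after the values were seen and were not tested; with 3 libraries against 3 an exact two-sided permutation test cannot go below p = 0.10.

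None of the 4 peroxiredoxins passed in edgeR. Every cryo value of the low-level prdx1 row lay above its fresh values, while the groups overlapped for prdx4, PRDX1 and prdx6. The prdx1 row held 51, 42 and 31 counts in the fresh group and 103, 98 and 49 counts in the cryo group. After scaling these were 3.0, 2.3 and 1.9 CPM in fresh and 6.7, 13.9 and 5.4 CPM in cryo libraries. All cryo values lay above all fresh values, on few reads. The group means were 2.38 ± 0.578 and 8.67 ± 4.57 CPM (SD, n = 3), a log2 change of 1.85 ± 0.44 with an interval from 0.85 to 2.86 (edgeR adjusted p = 0.0752). The call depended on the tool and filter, with an adjusted p of 0.00521 in DESeq2 and 0.0312 in edgeR without a low-count filter. The change was 2.01 without cryo replicate 1 (edgeR adjusted p = 0.0513) and 1.52 with cryo replicate 1 as the only cryo library (edgeR adjusted p = 0.166).

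The prdx4 gene encodes the peroxiredoxin of the endoplasmic reticulum, which serves secreted proteins. Fresh libraries held 46.0, 41.5 and 38.0 CPM. Cryo replicate 1 was among them at 45.7 CPM, while cryo replicates 2 and 3 had 207 and 89.1 CPM. These high libraries were the vitellogenin-bearing ones, at 17.4% and 12.4% of counts. Vitellogenin is itself a secreted protein, and its part in the result was not tested. The log2 change over all libraries was 1.44 ± 0.51, with an interval from 0.27 to 2.61 (edgeR adjusted p = 0.182). It was 1.82 without cryo replicate 1 (edgeR adjusted p = 0.0332), 0.73 without cryo replicate 2 (edgeR adjusted p = 0.283) and 0.17 with cryo replicate 1 as the only cryo library (edgeR adjusted p = 0.779).

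The abundant cytosolic row PRDX1 stood at 302, 389 and 303 CPM across the fresh group and at 529, 350 and 203 CPM across the cryo group. Cryo values lay both above and below all fresh values. Its log2 change of 0.12 ± 0.38 had an interval from -0.75 to 0.999 (edgeR adjusted p = 0.901), and it was -0.26 without cryo replicate 1 and 0.71 with cryo replicate 1 as the only cryo library. In mammals PRDX2 is among the most abundant proteins of red blood cells. The 9 red blood cell markers, of which alas2 had no count in any library, summed to 122, 114 and 151 CPM for fresh and 319, 240 and 134 CPM for cryo libraries. Cryo replicate 1 was thus highest in both the markers and PRDX1. Fresh replicate 2, however, had the lowest marker sum of all (114 CPM) and the highest PRDX1 of the fresh group (389 CPM). The part of red blood cells in the PRDX1 values was not tested.

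The prdx6 gene encodes the 1-Cys peroxiredoxin, which also reduces phospholipid peroxides. Fresh libraries held 55.3, 52.5 and 103 CPM, and cryo libraries 85.9, 32.2 and 38.1 CPM. Fresh replicate 3 and cryo replicate 1 were the high libraries, so the groups overlapped. On the log2 scale it differed by -0.43 ± 0.45, from -1.46 to 0.60 (edgeR adjusted p = 0.661), and it was -0.99 without cryo replicate 1 and turned in sign, to 0.33, with cryo replicate 1 as the only cryo library.

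Of the Nrf2 branch, the quinone reductase gene nqo1 was low in cryo replicates 2 and 3 and nearer to the controls in cryo replicate 1. Fresh libraries held 44.0, 49.8 and 37.5 CPM, and cryo replicates 1, 2 and 3 held 32.9, 7.09 and 8.22 CPM. All cryo values lay below the lowest fresh one, cryo replicate 1 by little. Over all libraries the log2 change was -1.43 ± 0.57 with an interval from -2.74 to -0.12 (edgeR adjusted p = 0.233; 0.124 in DESeq2). Without cryo replicate 1 it was -2.502 and passed (edgeR adjusted p = 0.00813), and with cryo replicate 1 as the only cryo library it was -0.37 (edgeR adjusted p = 0.554). Its cryo libraries spread more than those of most genes, with an SD of log2 CPM of 1.21 that exceeded 90.3% of tested genes.

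The nfe2l2a gene encodes the main zebrafish Nrf2. Its fresh values were 312, 242 and 297 CPM and its cryo values 327, 128 and 203 CPM. Cryo replicate 1 was the highest of all and cryo replicates 2 and 3 lay below every fresh library. Its log2 change was -0.37 ± 0.37, from -1.23 to 0.48 (edgeR adjusted p = 0.647), and it was -0.76 without cryo replicate 1 and 0.24 with cryo replicate 1 as the only cryo library. There were 0.141, 0.206 and 0.126 counts of nqo1 for each count of nfe2l2a in the fresh libraries. In the cryo libraries there were 0.101, 0.0553 and 0.0404, and these ranges did not overlap. The ratio of nqo1 to hmox1a overlapped, at 0.495 to 6.09 in fresh and 0.121 to 0.575 in cryo libraries. That of hmox1a to nfe2l2a also overlapped, at 0.0208 to 0.416 and 0.126 to 0.459. These ratios too were chosen after the values were seen and were not tested. Much of Nrf2 control is known to act on the protein, which these RNA values do not measure.

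The hmox1a gene, whose product breaks down heme, did not follow the other genes and varied most within the fresh group. The fresh libraries held 125, 1848 and 103 counts, which is 7.35, 100.6 and 6.16 CPM. The cryo libraries had 57.3, 58.9 and 25.5 CPM. Every cryo value lay above fresh replicates 1 and 3 and below fresh replicate 2, so the groups overlapped through a single library. The SD of log2 CPM among fresh libraries was 2.24, larger than that of 99.3% of tested genes. Over all libraries the log2 change was 0.31 ± 0.99, with an interval from -1.98 to 2.603 that leaves its direction undetermined (edgeR adjusted p = 0.904). Without fresh replicate 2 it was 2.85 (edgeR adjusted p = 0.0831), without fresh replicate 1 it was -0.12 and without fresh replicate 3 it was -0.14. Without cryo replicate 1 it was 0.14, and with cryo replicate 1 as the only cryo library 0.62. DESeq2 gave hmox1a no adjusted p.

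Few genes shared the high level of hmox1a in fresh replicate 2. Of 12674 tested genes, 13 had at least 5 CPM there and at least 8 times the level of both other fresh libraries, which is 0.103%. The same rule found 16 genes in fresh replicate 1 and 3 in fresh replicate 3. Beside hmox1a (listed as HMOX1) the 13 included tfr1b, a transferrin receptor gene of iron uptake, at 34.6 CPM against 0.12 and 1.32 in fresh replicates 1 and 3. They also included SOCS1, a feedback inhibitor of cytokine signalling, at 32.2 CPM against 3.06 and 2.45, and FLVCR2, of a heme and choline transporter family, at 5.77 CPM against 0.06 and 0.30. In the cryo libraries FLVCR2 had 5.63, 23.3 and 7.66 CPM, all above fresh replicates 1 and 3. This was not particular to FLVCR2. Every cryo value also lay above fresh replicates 1 and 3 for SOCS1, at 7.31, 3.97 and 9.66 CPM. The same held for crp5, at 290.9, 4.40 and 312.8 CPM. It did not hold for tfr1b, at 1.16, 0.57 and 7.99 CPM, nor for others of the 13 such as RPS15 and CYP2R1. Of the 13, RPS15 (161 CPM), CYP2R1 (86.1 CPM), crp5 (79.4 CPM) and CAMK2N2 (53.8 CPM) were higher in fresh replicate 2 than tfr1b. The genes tfr1b, SOCS1 and FLVCR2 therefore do not stand for all 13. They and the rule that found them were chosen after their values were seen, and no test was made.

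**Figure D2:**
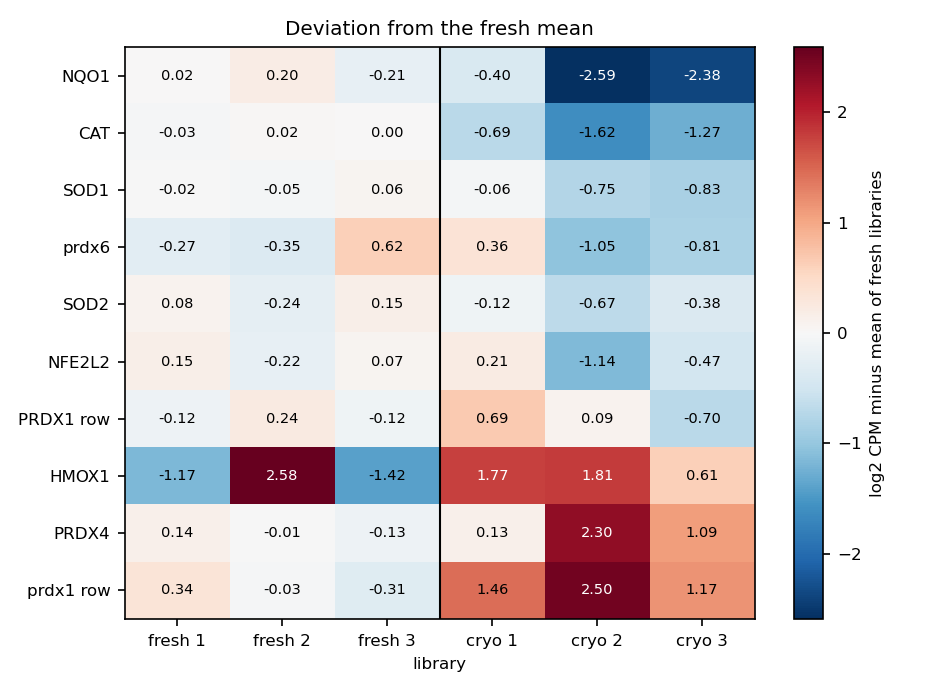
Log2 CPM of each gene (rows) in each library (columns) minus its mean over the fresh libraries, with the value in each cell. NQO1 stood at -0.40 in cryo replicate 1 and at -2.59 and -2.38 in cryo replicates 2 and 3, while HMOX1 stood at 2.58 in fresh replicate 2.

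Set against the fresh mean library by library, the genes split the cryo group. In cryo replicate 1, 4 of the 10 genes were below the fresh mean and the median deviation was 0.17 on the log2 scale. In cryo replicates 2 and 3, 6 and 7 genes were below it, with medians of -0.71 and -0.59. Over all tested genes the medians were -0.05, 0.00 and -0.04. TMM scaling itself brings these near 0, so they are a reference for the 10 genes and not a separate check. Cryo replicate 1 was the cryo library nearest to the fresh mean for 7 of the 10 genes, against 39.4% of all tested genes. These are descriptions of single libraries, without a test.

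In cryo replicate 1 itself, cat, nqo1 and sod1 lay below the fresh range, at -0.69, -0.40 and -0.06 from the fresh mean on the log2 scale. The genes prdx1, PRDX1 and nfe2l2a lay above it, at 1.46, 0.69 and 0.21. The other members lay within it. The share of all tested genes outside it was not counted, so these positions cannot be read as particular to the 10 genes. With every library there were 251 calls over 12674 tested genes. Without cryo replicate 1 there were 873 over 13235, among them 3 of the 10 genes (cat, prdx4 and nqo1). That fit compares the fresh libraries with the vitellogenin-bearing ones, and the sperm treatment and whatever brought the vitellogenin RNA cannot be told apart in it.

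**Figure D3:**
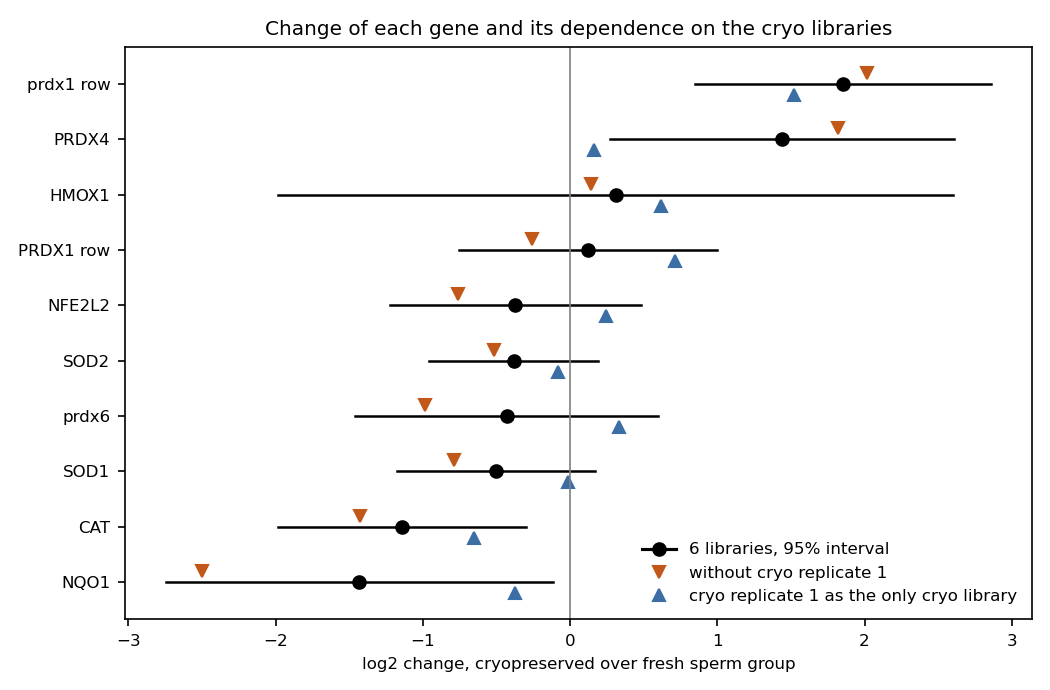
Log2 change of each gene, cryo over fresh, with its 95% interval over 6 libraries (black), beside the change without cryo replicate 1 (orange) and with cryo replicate 1 as the only cryo library (blue). The intervals of prdx1, PRDX4, CAT and NQO1 did not include 0, and for PRDX4 and NQO1 the estimate from cryo replicate 1 alone lay near 0, at 0.17 and -0.37.

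Across the 6 libraries the named gene whose log2 CPM ran most like each member differed from member to member. Pearson's r was 0.999 between cat and GCAT, a threonine breakdown gene, at 118, 124 and 112 CPM in fresh and 48.6, 14.6 and 23.2 CPM in cryo libraries. For prdx4 the closest gene was il34, a cytokine of macrophage growth (r = 0.996), with 3.95, 28.8 and 9.66 CPM in cryo replicates 1, 2 and 3 and 2.51 to 4.17 CPM in fresh libraries. For other members it was tmem254 for sod1 (0.998), MFSD6 for sod2 (0.997), si:ch211-216p19.6 for prdx1 (0.992), sorbs3 for PRDX1 (0.993), TPR for prdx6 (0.984), ZNF384 for hmox1a (0.979) and asgrl1 for nfe2l2a (0.993). With 12188 named genes and 6 libraries such values come easily: 247 genes exceeded 0.95 with cat and 12 with hmox1a. All points share the group difference and the vitellogenin-bearing libraries. Among the members themselves the closest pair was sod1 and nqo1 (r = 0.973) and the most opposed was prdx4 and nfe2l2a (r = -0.938).

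Partner genes of the same pathways were taken from 8 lists, with 76 genes tested. Of these 1 passed the edgeR threshold, lower in the cryo group, where 0.963% of all tested genes passed in that direction. At an unadjusted p under 0.05 there were 17 of the 76, near the 18.5% of all tested genes. DESeq2 called 12 of 87 partner genes with an estimate, against 1162 of all 21810 genes with an estimate. The same calls over all genes were 7.66% of the genes it gave an adjusted p. These shares over all genes are the reference for the counts of each list below. The median log2 change over the 76 genes was -0.27, with 48 values negative and 28 positive.

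The gene that passed was EPHX1, the microsomal epoxide hydrolase and one of 14 tested genes in the list of other Nrf2 targets. Its level was 287, 268 and 293 CPM in fresh libraries and 124, 94.5 and 123 CPM in the cryo libraries. All 3 cryo libraries were low, cryo replicate 1 included. The log2 change was -1.31 ± 0.25 (edgeR adjusted p = 0.0466). The call was marginal. In edgeR the adjusted p was 0.0525 with RLE factors, 0.0604 with upper-quartile factors and 0.0545 with vitellogenin genes left out. It was 0.0570 after thinning and 0.147 with the replicate number as a block. The main fit tested only 1 of the 7 vitellogenin genes, so leaving them out cannot show the effect of their counts. EPHX1 passed in DESeq2 (8.53e-05) and in limma-voom (0.0434). It also passed in edgeR without the low-count filter (0.0401) and with at least 1 CPM in 3 libraries as the filter (0.0479). Leaving out fresh replicate 1, 2 or 3 gave 0.142, 0.155 or 0.223, leaving out cryo replicate 2 or 3 gave 0.0907 or 0.114, and leaving out cryo replicate 1 gave 0.0264.

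Of the same list 10 of 14 genes had negative values, and the list's median was -0.60. GCLC and GCLM, the subunits of the enzyme that limits glutathione synthesis, had log2 changes of -0.97 ± 0.27 and -0.73 ± 0.32 without passing in edgeR, and GCLC passed in DESeq2 (adjusted p = 0.0474), which called 3 genes of the list (EPHX1, ME1 and GCLC). ME1, the malic enzyme that supplies NADPH, had 552, 546 and 976 CPM in fresh libraries and 62.8, 2.41 and 31.3 CPM in cryo libraries. Its log2 change of -4.42 ± 0.99 missed the threshold in edgeR (adjusted p = 0.0684) and passed in DESeq2 (adjusted p = 2.37e-06). It passed in edgeR without the filter (0.00866), without cryo replicate 1 (-5.32, adjusted p = 0.0364) and without cryo replicate 2 (-3.83, adjusted p = 0.0322). TALDO1, of the pentose phosphate pathway, had 0.54 ± 0.29 without passing. GCLC, GCLM, ME1 and TALDO1 were chosen after their values were seen.

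In the Nrf2 control list 11 of 14 genes had negative values (median -0.37) and 0 passed in edgeR, while 3 had an unadjusted p under 0.05 and 1 (MAFK) passed in DESeq2. MAFK, a small Maf partner of Nrf2, had 4.0, 2.5 and 5.5 CPM in fresh and 0.58, 1.7 and 0.89 CPM in cryo libraries (edgeR adjusted p = 0.100; 0.0229 in DESeq2). The adaptor gene keap1a had 66.7, 69.9 and 71.7 CPM in fresh libraries and 57.4, 25.1 and 31.0 CPM in cryo libraries (log2 change -0.87 ± 0.33, edgeR adjusted p = 0.217). Without cryo replicate 1 keap1a passed, at -1.30 (edgeR adjusted p = 0.0309), and with cryo replicate 1 as the only cryo library it had -0.23 (edgeR adjusted p = 0.670). The second Nrf2 gene nfe2l2b had 13.9, 3.65 and 2.69 CPM in fresh libraries and 3.2, 1.7 and 0.999 CPM in cryo libraries, with overlapping ranges (edgeR adjusted p = 0.250). Both keap1a and nfe2l2a were thus lowest in cryo replicate 2.

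Of the superoxide dismutase partners, 4 rows matched and 2 were tested. SOD3 (ENSDARG00000070168), the extracellular dismutase, had 162, 203 and 164 CPM in fresh libraries and 75.3, 28.5 and 45.4 CPM in cryo libraries. No value overlapped. Its log2 change was -1.82 ± 0.38 (edgeR adjusted p = 0.0571), and it passed in DESeq2 (5.46e-04), in limma-voom (0.0491), in edgeR without the filter (0.0177) and in edgeR without cryo replicate 1 (0.0142). With cryo replicate 1 as the only cryo library it had -1.19 (edgeR adjusted p = 0.146). CCS, the copper chaperone of SOD1, had -0.13 ± 0.73 (edgeR adjusted p = 0.951). Its cryo libraries were far apart, at 0.841, 11.5 and 7.77 CPM, against 5.53, 8.22 and 7.84 CPM in fresh libraries.

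Of the 13 peroxiredoxin and thioredoxin partners 7 had negative and 6 positive values (median -0.21), and 0 passed in edgeR (1 at an unadjusted p under 0.05, 0 in DESeq2). TXNRD2, the mitochondrial thioredoxin reductase, had -1.15 ± 0.46 at 1.56 and 0.686 CPM on average (edgeR adjusted p = 0.240). The prdx5 gene had 38.8, 37.5 and 39.5 CPM in fresh and 47.4, 49.8 and 49.8 CPM in cryo libraries, close within each group and without overlap (log2 change 0.34 ± 0.20, edgeR adjusted p = 0.411). The sestrin gene sesn2 had -1.14 ± 0.67 (edgeR adjusted p = 0.412).

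Peroxisomal oxidases, which make the hydrogen peroxide that catalase removes, had negative values for 7 of 9 genes (median -0.68), and 0 passed in edgeR (2 at an unadjusted p under 0.05, and both of these passed in DESeq2). DAO (ENSDARG00000035601), a D-amino acid oxidase row, had a log2 change of -2.35 ± 0.75 with overlapping groups (edgeR adjusted p = 0.150). This row had 5.17, 13.9 and 1.68 CPM in fresh and 1.94, 0.993 and 0.999 CPM in cryo libraries. Without fresh replicate 2 its change was -1.31. Other tested DAO rows had 0.06 ± 0.35 (ENSDARG00000035603) and -0.84 ± 0.64 (ENSDARG00000035602). ACOX3 had -0.68 ± 0.33 (edgeR adjusted p = 0.3203).

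Of 13 tested peroxisome import and division genes 8 had negative and 5 positive values (median -0.15), and 0 passed in edgeR (1 at an unadjusted p under 0.05, PEX11G). PEX11G, a peroxisome membrane protein gene, had 61.1, 22.7 and 43.4 CPM in fresh libraries and 18.9, 8.51 and 16.0 CPM in cryo libraries (log2 change -1.55 ± 0.43, edgeR adjusted p = 0.113; 0.0235 in DESeq2). PEX10 and PEX16 had 0.62 ± 0.35 and -0.36 ± 0.24.

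Of the 6 heme breakdown and ferritin genes 0 passed in edgeR, 1 had an unadjusted p under 0.05 (fth1a) and that gene passed in DESeq2. The ferritin heavy chain gene fth1a, which stores the iron that heme oxygenase frees, had 267, 198 and 234 CPM in fresh libraries and 835, 738 and 392 CPM in cryo libraries. All cryo values lay above all fresh values, and fresh replicate 2, the library with high hmox1a, had the lowest fth1a of all. Its log2 change was 1.49 ± 0.36 (edgeR adjusted p = 0.0775; 0.00198 in DESeq2). With cryo replicate 1 as the only cryo library it was 1.88 and passed (edgeR adjusted p = 0.0455). HMOX2 and BLVRA had -0.70 ± 0.42 and 0.86 ± 0.60.

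The phagocyte oxidase, which releases superoxide in neutrophils and macrophages, had the opposite sign to most lists. Its 5 tested genes had a median log2 change of 1.32, with 4 positive values, and 0 passed in edgeR. An unadjusted p under 0.05 in edgeR was found for 4, against 18.5% of all tested genes. DESeq2 called 3, against 7.66% of the genes it gave an adjusted p. NCF1 had 3.47, 0.76 and 0.96 CPM in fresh libraries and 26.1, 10.8 and 10.7 CPM in cryo libraries (log2 change 3.20 ± 0.67, edgeR adjusted p = 0.0575; 6.60e-05 in DESeq2). NCF1 also passed in limma-voom (0.0434) and in edgeR without the filter (0.0080), after thinning (0.0346) and without fresh replicate 1 (0.0467). The flavocytochrome subunit genes cyba and cybb had 1.09 ± 0.29 and 3.06 ± 0.83 (edgeR adjusted p = 0.0962 and 0.102). Of these cybb passed in DESeq2 (0.00243), in limma-voom (0.0458), and in edgeR without the filter (0.0248) and without fresh replicate 1 (0.0182), and cyba passed in DESeq2 (0.0343). These genes are themselves markers of phagocytes, and the macrophage markers summed higher in every cryo than in any fresh library, as given above. Of the 11 macrophage rows 8 were tested, 0 passed in edgeR, and 1 MPEG1 row had no count in any library. Neutrophil markers summed to 1.74 to 5.32 CPM in fresh and 2.11 to 20.0 CPM in cryo libraries, which overlapped. The part of phagocytes in these values was not tested.

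**Figure D4:**
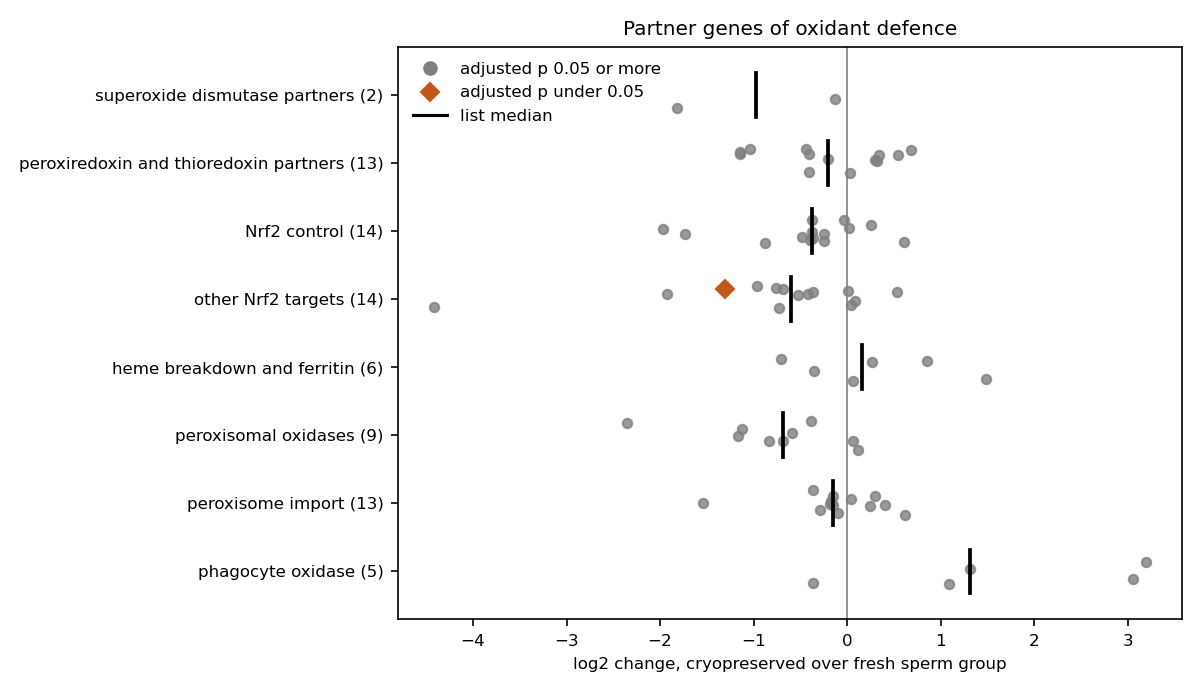
Log2 change, cryo over fresh, of 76 tested partner genes in 8 lists (1 point per gene, number tested in brackets, black bar the list median). The 1 gene past the threshold is EPHX1 at -1.31, and medians ran from -0.98 for the superoxide dismutase partners to 1.32 for the phagocyte oxidase.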

How the data were processed

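Whole-number counts per Ensembl gene were deposited for 6 liver libraries. The authors aligned reads with HISAT2, per the file headers, to GRCz11, per the submitters' processing notes. Which tool counted the reads, with which strand setting and annotation release, is not given in the sources used here. Antisense or overlapping partners may therefore share reads. Groups follow the treatment labels, and the batch label is the same throughout. Symbols came from a name table (29201 of 32520 rows), then RefSeq synonyms, then the symbol without its copy letter, which matched 166 of 177 list symbols. The members and lists were chosen with earlier results of these data known. Named partner genes are those past the threshold in each list, or the 3 of smallest p; some genes this rule takes are not reported here.

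Counts were tested with edgeR 4.0.16 in R 4.3.3: filterByExpr (12674 genes kept), TMM factors, quasi-likelihood F-tests (two-sided) with group as the only term, Benjamini-Hochberg over all tested genes, threshold 0.05. The SE is the size of the log2 change over the square root of F, and 95% intervals use it. CPM are TMM-normalised. The log2 CPM of single libraries use a prior count of 2. Alternatives used DESeq2 1.42.0, limma 3.58.1 (voom), other factors, filters and libraries. On simulated counts for this comparison, over 12400 genes, recovery was 6% for log2 changes of 1, 60% for 2 and 90% for 3, with 6 false calls among 134. No 2 libraries of a group agreed within sampling noise (chi-square over its degrees of freedom: 48.0 to 389.9). Figures used matplotlib 3.10.9.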

Additional observations from a re-analysis of the deposited data

How the results depend on the processing

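Of 160 values of the 10 genes under 16 alternatives, 149 kept their direction and side of the threshold. Among these, hmox1a in DESeq2 had no adjusted p and was counted as not passing. The 6 that newly passed are given in the report (prdx1 without the filter and in DESeq2, cat in DESeq2, and cat, prdx4 and nqo1 without cryo replicate 1). Signs turned for hmox1a without fresh replicate 1 (-0.12) or 3 (-0.14) and for PRDX1 without cryo replicate 1 (-0.26); with 1 library left out, hmox1a ranged from -0.14 to 2.85 and PRDX1 from -0.26 to 0.44. They also turned, with cryo replicates 2 and 3 left out, prdx6 (0.33), nfe2l2a (0.24) and the median of the 10 genes (0.21). The count of the 10 genes past the threshold was 1 without the filter, 2 in DESeq2, and 0 to 3 when 1 library was left out. Over all genes it was 705 without the filter, 1162 in DESeq2, 33 with the replicate block, 109 without cryo replicates 2 and 3, and 32 to 873 when 1 library was left out. For the partner genes it was 0 with RLE or upper-quartile factors, 0 with vitellogenin genes left out and 4 in limma-voom. It was 5 without the filter and 12 in DESeq2, each of 87 genes. Over all genes DESeq2 called 1162 of 21810 with an estimate, or 7.66% of those it gave an adjusted p. When 1 library was left out, 0 to 4 partner genes passed. The main fit tested only 1 of the 7 vitellogenin genes, so leaving them out cannot show the effect of their counts. With cryo replicates 2 and 3 left out, cryo replicate 1 was assumed to vary like the fresh libraries. Deviations of same-numbered libraries correlated at -0.07, -0.13 and 0.06. With few libraries per group, and cryo replicate 1 far from the other cryo libraries, these values cannot decide whether the numbers pair libraries. With the replicate block 0 of the 10 genes passed in edgeR, and 1 partner gene, NCF1 (adjusted p = 0.0473), while EPHX1 had 0.147. The causes of these differences were not tested. At this spread most changes of 1 on the log2 scale were out of reach.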
